A study of Mus musculus with 18 samples.

Results

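The genes described here encode the abundant proteins of pre-mRNA splicing: the heterogeneous nuclear ribonucleoproteins (hnRNPs), the serine and arginine rich (SR) proteins, the proteins of the small nuclear ribonucleoprotein particles (snRNPs), and the SF3a and SF3b subunits of the U2 snRNP. The rule that chose them used gene names and was set with earlier results of these data known. It took every probe set with a single gene symbol that starts with Hnrnp or Snrp. It also took those whose single symbol is Srsf followed by a number, or Sf3a or Sf3b followed by a digit. That rule took 139 of 45101 probe sets on the array, which stand for 47 of the 18193 genes named by such probe sets: 19 hnRNP, 10 SR protein, 9 snRNP protein and 9 SF3 genes. After a filter on low signals, 128 of the 139 probe sets and 45 of the 47 genes remained. Snrpn and Srsf12 did not pass it. Srsf7, Snrpa, Snrpd1, Snrpd2 and Hnrnpa3 had no probe set with a single gene symbol and were not analysed here.

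The study set 9 normal mouse prostates (ventral and dorsolateral lobes, no transgene named) against 9 TRAMP tumours, with 1 Affymetrix array per sample. TRAMP is a transgenic mouse model in which the prostate-directed probasin promoter drives the SV40 T antigens, which bind and inactivate p53 and the retinoblastoma proteins, in prostatic epithelium. Strain, age, tumour stage and the number of animals behind each sample are not given in the sources used here, so the p-values measure only the spread between these samples. The tumours are whole tissue.

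Splicing removes introns from a pre-mRNA in the spliceosome, a machine that is assembled anew on each intron. The U1 snRNP recognises the start of the intron and the U2 snRNP its branch point, where SF3a and SF3b hold the U2 RNA on the pre-mRNA, and a ring of Sm proteins surrounds the RNA of the U1, U2, U4 and U5 particles. SR proteins bind exons and generally favour their inclusion, whereas hnRNPs coat the nascent transcript and often favour skipping, so that the balance among them helps to set which exon is used.

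Splicing factor genes that differed were higher in the tumours. Of the 45 genes tested, 13 were higher in tumours and 0 were lower by limma at a Benjamini-Hochberg adjusted p of 0.05, against 11.3% of all 12793 genes tested that were higher and 12.7% that were lower. The 13 are 28.9% of the 45. At an unadjusted p of 0.05, limma placed 22 genes higher and again 0 lower, beside 17.5% and 19.6% of all genes at that threshold. The log2 difference, tumour minus normal, was positive for 40 of the 45 genes and negative for 5, with a median of 0.36, beside a median of -0.01 over all genes tested. The differences were modest: the called genes lay between 1.45-fold and 1.99-fold higher. By family, 5 of 19 hnRNP genes, 3 of 9 SR genes, 5 of 8 snRNP protein genes and 0 of 9 SF3 genes were called higher, with median log2 differences of 0.36, 0.35, 0.58 and 0.14. These differences between families were not tested.

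**Figure D1:**
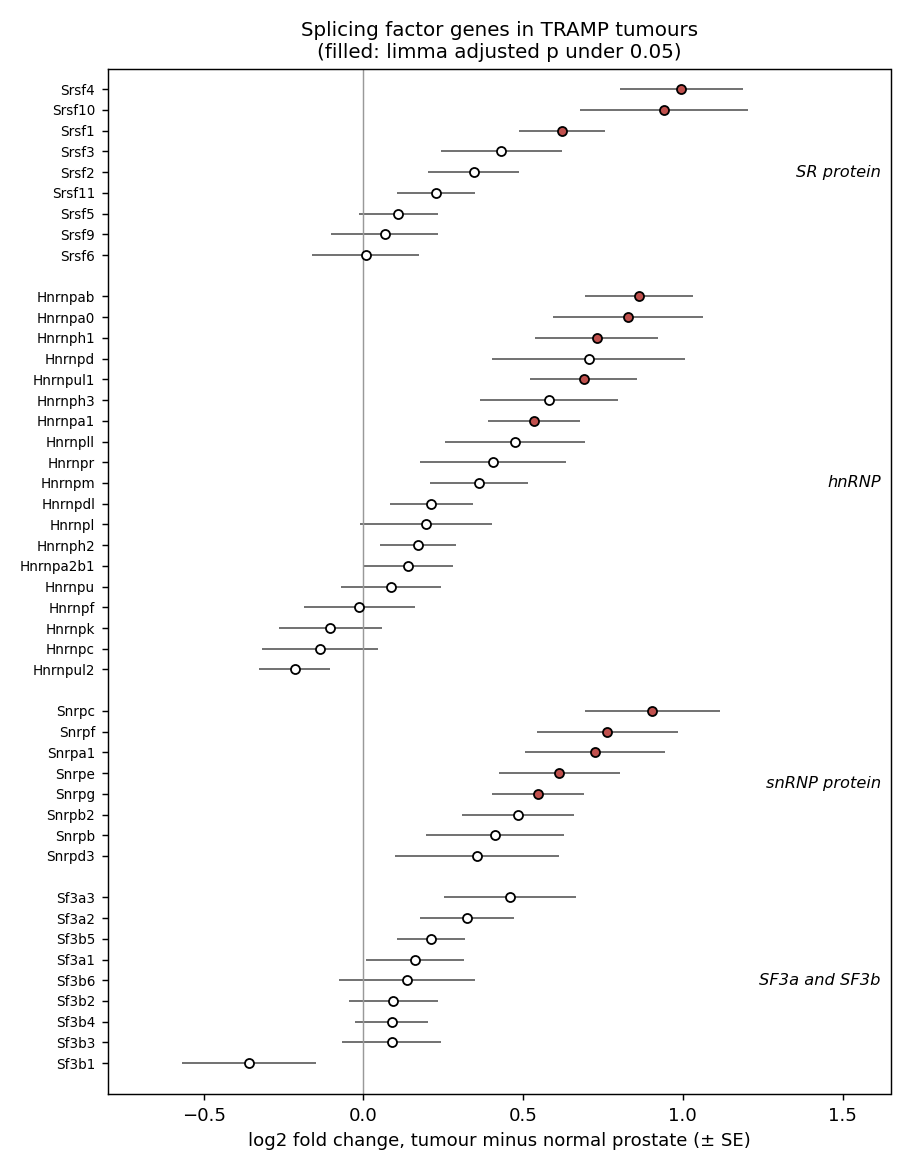
Log2 difference of each of the 45 genes, tumour minus normal prostate (horizontal axis, with its standard error), grouped by family. Filled points passed limma's adjusted p of 0.05; they are all to the right of 0, and the SF3 family holds none.

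Arrays entered these tests on the scale of log2(signal + 16), where signal is the deposited intensity and 16 is a constant that steadies dim values. All levels and differences below are on that scale, which understates the fold of dim genes. Each gene is represented by its brightest probe set that passed the filter, and errors are standard errors of the log2 difference unless SD is named. In bulk tissue, fewer cells of a type and less RNA per cell cannot be told apart.

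Among the SR proteins, Srsf4 had the largest difference and was the only one of the 45 genes whose groups did not overlap, a pattern seen with tumours higher in 1.45% of all genes. Srsf4, measured by a single probe set, had levels of 10.09, 10.36 and 10.47 (lowest, median and highest) over the 9 normal prostates and 10.82, 11.18 and 12.46 over the 9 tumours. Tumours 9 and 1, at 12.46 and 11.998, were the highest. The log2 difference of Srsf4 was 0.995 ± 0.193, or 1.99-fold, with a limma adjusted p of 0.00146. Srsf1, the founding member of the family and an inducer of exon inclusion that acts as an oncogene when overproduced, was among the brightest genes of the set. Its levels were 12.82, 13.01 and 13.26 in normal prostates and 13.24, 13.50 and 14.32 in tumours, where 8 of 9 exceeded the highest normal prostate. Srsf1 rose by 0.62 ± 0.134 (limma adjusted p = 0.00305).

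Srsf10, an atypical SR protein that represses splicing when dephosphorylated during mitosis and heat shock, had levels of 10.31, 10.75 and 11.01 in normal prostates. In tumours its levels were 10.42, 11.80 and 12.48, and the groups overlapped, with 6 of 9 tumours above every normal prostate. The log2 difference of Srsf10 was 0.94 ± 0.264 (limma adjusted p = 0.0152), and it belonged to 1 of the 4 probe sets of the gene, as described further on. The other 6 SR genes did not pass the test. Srsf2, which binds exonic enhancers, had a log2 difference of 0.35 ± 0.142 (limma adjusted p = 0.084), and Srsf3, the smallest SR protein and a factor in mRNA export, one of 0.43 ± 0.188 (limma adjusted p = 0.102). For both of them, 6 of 9 tumours lay above the highest normal prostate. Srsf5, with a difference of 0.11 ± 0.124 (limma adjusted p = 0.55), and Srsf6, with 0.01 ± 0.167 (limma adjusted p = 0.981), differed by less than the spread between samples. The value of Srsf6 was below 0 with each array's 75th percentile as its centre (-0.07) or on housekeeping genes (-0.03). The 4 tested probe sets of Srsf6 ran from 0.01, its brightest, to 0.49, and 0 of them were called.

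The sequences before the starts of the called genes were searched for motifs of factors linked to proliferation and housekeeping transcription, because all 13 called genes were higher. The 250 bases upstream of each annotated start came from RefSeq on GRCm38.p6, and 40 of the 45 tested genes had at least 1 such window. TTCCCGCC, an E2F-type motif read on either strand, occurred in 1.86% of all 32851 annotated windows, which were not restricted to the genes tested here. Of the 53 windows of the tested members, 9 held the motif (17.0%). A comparison with the windows of tested genes alone was not made. The 9 windows came from 7 genes, and windows of 1 gene can overlap: those of Srsf4 start at 131873387 and 131873389. By gene, the motif was found in 4 of the 13 called genes and in 3 of the other 27 with a window. The 4 are Srsf4, Srsf10, Srsf1 and Hnrnpul1, and the other 3 are Hnrnpa2b1, Hnrnpf and Hnrnpr. The windows of the 4 called genes are shown because all of the called SR genes are among them; capitals mark the motif or its reverse complement, and each sequence is written 5′ to 3′ on the strand of its gene.
Srsf4, chr4:131873387-131873636, plus strand: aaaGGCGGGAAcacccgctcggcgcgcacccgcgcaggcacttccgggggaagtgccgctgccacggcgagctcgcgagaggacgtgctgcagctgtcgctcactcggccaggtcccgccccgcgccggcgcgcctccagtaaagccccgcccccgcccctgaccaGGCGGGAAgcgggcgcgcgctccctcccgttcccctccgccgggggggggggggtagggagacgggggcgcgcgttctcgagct
Srsf10, chr4:135855821-135856070, plus strand: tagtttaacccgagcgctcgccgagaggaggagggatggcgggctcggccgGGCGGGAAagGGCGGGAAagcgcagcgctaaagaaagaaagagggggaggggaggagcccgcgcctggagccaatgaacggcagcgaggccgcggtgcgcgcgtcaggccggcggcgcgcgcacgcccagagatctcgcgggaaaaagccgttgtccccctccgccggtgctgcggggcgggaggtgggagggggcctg
Srsf1, chr11:88047123-88047372, plus strand: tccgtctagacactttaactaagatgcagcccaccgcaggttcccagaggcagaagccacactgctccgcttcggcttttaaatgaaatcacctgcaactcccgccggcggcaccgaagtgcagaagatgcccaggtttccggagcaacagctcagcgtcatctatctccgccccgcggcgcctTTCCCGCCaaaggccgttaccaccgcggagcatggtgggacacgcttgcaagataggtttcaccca
Hnrnpul1, chr7:25754760-25755009, minus strand: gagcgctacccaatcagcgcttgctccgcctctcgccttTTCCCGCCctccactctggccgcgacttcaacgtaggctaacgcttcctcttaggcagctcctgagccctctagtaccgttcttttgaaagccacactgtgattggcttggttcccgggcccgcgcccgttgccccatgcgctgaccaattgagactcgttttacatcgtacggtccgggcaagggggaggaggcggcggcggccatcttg
Srsf4 and Srsf10 each held the motif at 2 places and Srsf1 and Hnrnpul1 at 1.

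Of the 7 further motifs searched on both strands, TTTCCCGC, which overlaps TTCCCGCC by all but its end bases, was found in 3 of the 13 called genes and 1 of the other 27, and in 0.895% of all windows. Neither TTTGGCGC nor TTTCGCGC, in 0.417% and 0.256% of all windows, was found in a window of a tested member. CACGTG, the E-box bound by MYC and MAX, was found in 0 of 13 called genes and 2 of the other 27 (6.02% of all windows). CCGGAAGT, an ETS motif, was in 1 of 13 and 6 of 27 (2.88%), the palindromic NRF1 motif, whose letters are not printed, in 0 of 13 and 1 of 27 (0.782%), and CCAAT, the NF-Y box, in 8 of 13 and 12 of 27 (33.8%). These counts are by gene and the percentages by window, and a gene can have more than 1 window. By window, the tested members' shares were 7.55% for TTTCCCGC, 3.77% for CACGTG, 17.0% for CCGGAAGT, 1.89% for the NRF1 motif and 47.2% for CCAAT. The members' windows were richer in G and C, with a median of 60.8% against 52.4% over all windows and 58.8% over those of the called genes, and the part of this in the counts was not tested. A match describes the letters and is not a site of binding.

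Among the hnRNPs, the called genes were Hnrnpab, Hnrnpul1, Hnrnph1, Hnrnpa1 and Hnrnpa0. Hnrnpab, a relative of Hnrnpd that binds RNA and single-stranded DNA, had levels of 12.39, 12.78 and 13.18 in normal prostates and 13.09, 13.54 and 14.51 in tumours, of which 8 exceeded every normal prostate. Its log2 difference was 0.86 ± 0.17, or 1.82-fold (limma adjusted p = 0.00161), and 0.52 with the mean of its kept probe sets (limma adjusted p = 0.00783). Hnrnpul1, an hnRNP U relative that also acts at sites of DNA damage, had levels of 11.50, 12.07 and 12.47 in normal prostates and 12.30, 12.60 and 13.54 in tumours. The groups overlapped, 6 of 9 tumours were above the normal range, and the difference was 0.69 ± 0.168 (limma adjusted p = 0.00647).

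Hnrnph1, which binds runs of G in introns and exons, had levels of 11.87, 12.22 and 12.37 in normal prostates. Its levels of 12.21, 12.82 and 13.86 in tumours left 7 of 9 above the normal range, with a difference of 0.73 ± 0.193 (limma adjusted p = 0.0108). With the mean of its kept probe sets, Hnrnph1 had a difference of 0.48 and lost its call (limma adjusted p = 0.0577). Hnrnpa1, the classical antagonist of Srsf1 in the choice of splice sites, had levels of 11.40, 12.11 and 12.33 in normal prostates and 12.14, 12.66 and 12.96 in tumours. Here too 7 of 9 tumours were above the normal range, and Hnrnpa1 rose by 0.53 ± 0.144 (limma adjusted p = 0.0122). Hnrnpa0, named here after its values were seen, binds AU-rich elements of mRNAs; its levels were 10.997, 11.28 and 11.50 in normal prostates and 11.37, 11.74 and 13.39 in tumours. Tumour 9 had that highest level of Hnrnpa0 and 8 of 9 tumours were above the normal range, with a difference of 0.83 ± 0.234 (limma adjusted p = 0.0155).

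The other 14 hnRNP genes did not pass. Hnrnpd, also known as AUF1, a regulator of mRNA decay, had the widest tumour range of the named hnRNPs: 10.53, 11.69 and 13.18, against 10.65, 11.21 and 11.46 in normal prostates. Its difference of 0.71 ± 0.303 had a limma adjusted p of 0.0973, and 6 of 9 tumours exceeded the normal range. Hnrnpm had a difference of 0.36 ± 0.153 (limma adjusted p = 0.0913). Close to 0 were Hnrnpa2b1, Hnrnpl and Hnrnpu, at 0.14 ± 0.14, 0.20 ± 0.207 and 0.09 ± 0.157, with limma adjusted p-values of 0.497, 0.519 and 0.723. The 5 tested probe sets of Hnrnpu ran from 0.09, its brightest, to 0.58, and 0 of them were called. Hnrnpk, a poly(C)-binding protein, was one of the brightest members, with levels of 13.15, 13.97 and 14.35 in normal prostates and 13.34, 13.76 and 14.29 in tumours. The ranges of Hnrnpk nearly coincide, and its difference of -0.10 ± 0.161 (limma adjusted p = 0.677) turned to 0.14 after quantile normalization. Over the 19 hnRNP genes the differences ran from -0.22 (Hnrnpul2) to 0.86 (Hnrnpab).

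The snRNP protein genes had the highest median of the 4 families, and all 8 of the tested genes had positive differences, from 0.36 to 0.90. Snrpc encodes U1-C, the U1 subunit that contacts the base pairing between U1 RNA and the start of the intron. Its levels were 9.95, 10.37 and 10.93 in normal prostates and 10.73, 10.98 and 12.07 in tumours, of which 6 were above the normal range. Snrpc rose by 0.90 ± 0.212, or 1.87-fold (limma adjusted p = 0.00512). Snrpg, an Sm ring protein, had levels of 12.03, 12.30 and 12.59 in normal prostates and 12.35, 12.75 and 13.41 in tumours, with 7 of 9 tumours above the normal range. Its difference was 0.55 ± 0.144 (limma adjusted p = 0.0103).

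Snrpf and Snrpe, which also encode proteins of the Sm ring, showed the same overlap of groups, each with 6 of 9 tumours above the normal range. Levels of Snrpf were 10.10, 10.35 and 10.75 in normal prostates and 10.28, 10.92 and 12.01 in tumours, a difference of 0.76 ± 0.222 (limma adjusted p = 0.0181). Levels of Snrpe were 12.37, 12.65 and 13.14 in normal prostates and 12.46, 13.29 and 14.01 in tumours, a difference of 0.61 ± 0.189 (limma adjusted p = 0.0252). Snrpa1 encodes U2 A′, which joins the U2 RNA with U2 B″; its levels were 10.09, 10.60 and 10.82 in normal prostates and 10.54, 11.09 and 12.24 in tumours. The difference of Snrpa1 was 0.73 ± 0.219 (limma adjusted p = 0.0223), again with 6 of 9 tumours above the normal range. Snrpb, which encodes the Sm proteins B and B′ and controls its own mRNA by splicing, had a difference of 0.41 ± 0.215 and did not pass (limma adjusted p = 0.17). Without tumour 1, Snrpe fell short of the threshold (limma adjusted p = 0.0509), and Snrpe, Snrpf, Snrpa1 and Hnrnpa0 did so when arrays were centred on housekeeping genes.

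**Figure D2:**
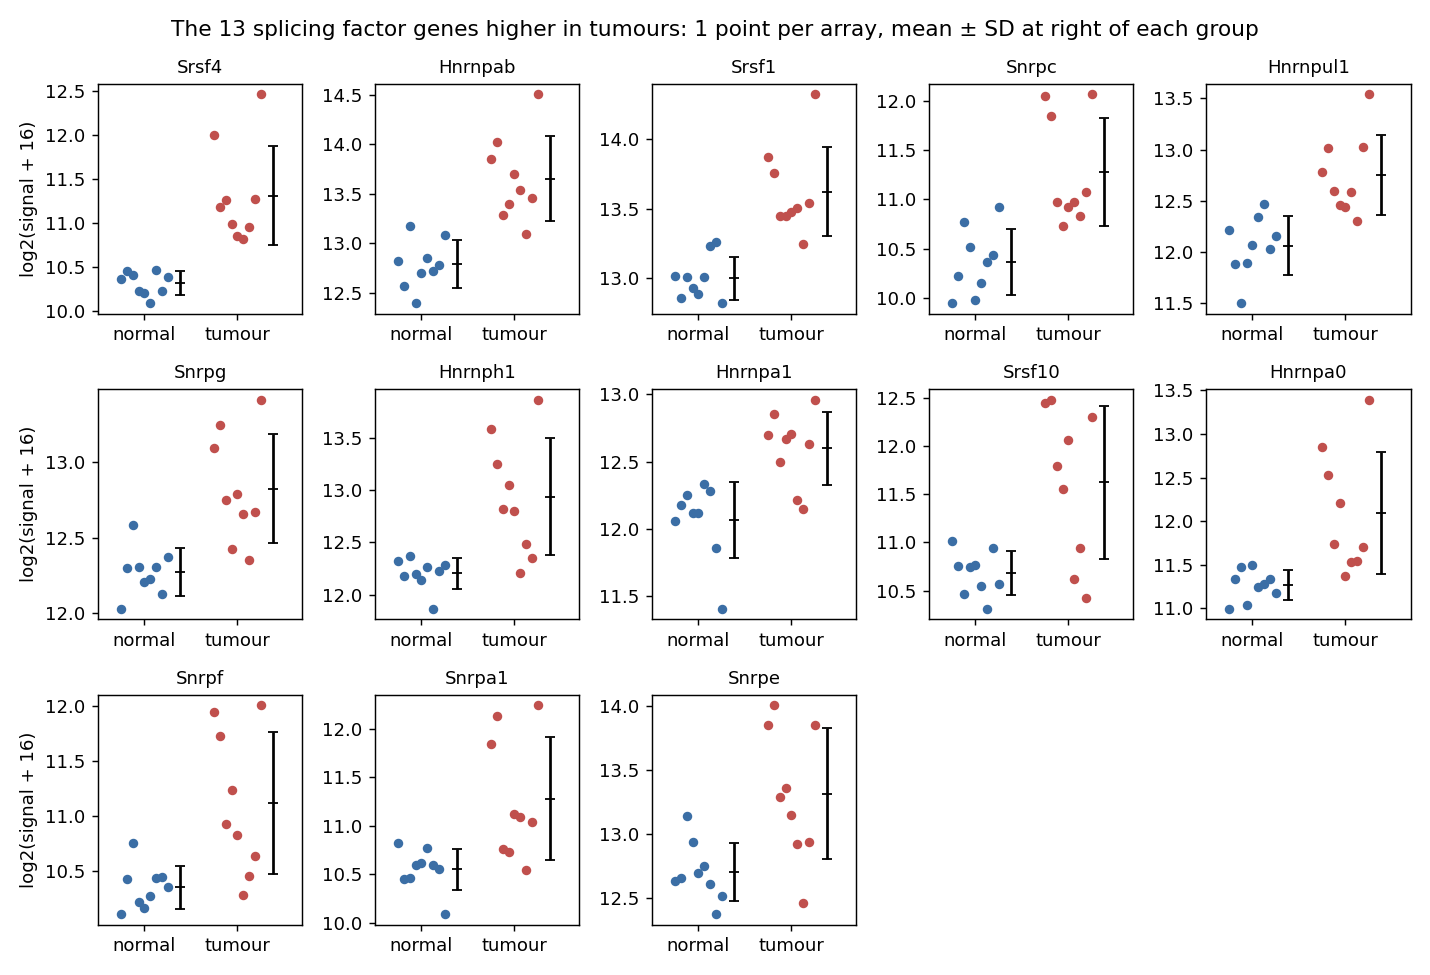
Level, as log2(signal + 16), of each of the 13 genes called higher on each of the 18 arrays, 1 point per array, with the mean ± SD of each group to its right. Only for Srsf4 do all 9 tumours lie above all 9 normal prostates; in the other 12 panels the groups overlap, with 6 to 8 tumours above the normal range.

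Of the 9 SF3 genes, 0 passed the test in either direction by limma on their brightest probe sets. At an unadjusted p of 0.05, limma placed Sf3a2 and Sf3a3 higher. Of the 26 SF3 probe sets tested, 3 were higher and 0 lower, beside 10.1% and 9.48% of all probe sets tested. The 3 belonged to Sf3a3, Sf3b1 and Sf3b6. Sf3b1, the large subunit of SF3b that is mutated in several human cancers, had levels of 11.28, 12.43 and 12.72 in normal prostates and 11.26, 11.98 and 12.44 in tumours. No tumour exceeded the highest normal prostate, and the difference of -0.36 ± 0.209 was the lowest of the 45 genes (limma adjusted p = 0.223). Sf3b3 and Sf3b4 had differences of 0.09 ± 0.155 and 0.09 ± 0.115 (limma adjusted p = 0.713 and 0.607), and Sf3a1, which encodes a subunit of SF3a, one of 0.16 ± 0.154 (limma adjusted p = 0.469). Sf3a3, at 0.46 ± 0.207, had the largest difference of the family (limma adjusted p = 0.114). Its normal levels were narrow, at 9.62, 9.70 and 9.86, and its tumour levels wide, at 9.37, 10.16 and 11.11, so that 6 tumours lay above and 2 below the normal range.

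Most genes of the set had several probe sets. Over the 128 probe sets tested, 37 were higher in tumours and 1 was lower, beside 10.1% and 9.48% of all 27292 probe sets tested. At least 1 probe set was higher for 25 of the 45 genes, beside 13.7% of all genes. The members had more chances to be so counted, with 83 probe sets beyond the brightest over 45 genes, against 9747 over 12793 genes. Of the 34 genes with more than 1 tested probe set, 22 had positive differences in all of them, 12 had both signs and 0 had negative differences in all. In Snrpa1 all 3 probe sets passed, with differences from 0.63 to 0.91, and it was the only gene with more than 1 probe set in which every one did. Srsf1 passed in 4 of 6, with all 6 positive (0.38 to 1.14), and Hnrnpab in 3 of 7. Srsf3 was called in 1 of 6 probe sets and Snrpb in 1 of 2, although the brightest of each was not. Hnrnpr was called in 3 of 5 probe sets, again without its brightest. One of the 3, at 0.83 (limma adjusted p = 0.00567), and the Srsf4 probe set had groups that did not overlap, both with tumours higher. They were the only 2 of the 128 tested, a share near the 1.23% of all probe sets that passed the filter. For Hnrnpd, the dimmer of its tested probe sets was 1.37 ± 0.321 higher (limma adjusted p = 0.00614), above the 0.71 of its brightest probe set.

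To ask whether probe sets of a gene changed unequally, the difference between each further probe set and the brightest one was taken within each array and tested over all 9747 such pairs. Of the 83 pairs among these genes, 7 passed limma's adjusted p of 0.05, beside 5.19% of all pairs. Without normal prostate 9, 11 pairs passed. Probe sets of one gene can read different transcripts or different stretches of one transcript, and a name ending in _s_at, _x_at or _a_at marks probes shared by several transcripts or genes.

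Srsf2, whose protein is known to regulate its own mRNA by splicing, held the pair with the smallest adjusted p. The dimmest of its 4 probe sets had levels of 8.38, 8.71 and 9.18 in normal prostates and 7.28, 8.01 and 8.49 in tumours, with 7 of 9 tumours below the lowest normal prostate. This was the only lower probe set of the 128 tested, at -0.72 ± 0.162 (limma adjusted p = 0.00506). The brightest Srsf2 probe set had a positive difference (0.35, not called), and another, with levels of 9.38, 9.68 and 10.15 in normal prostates and 9.89, 10.34 and 11.37 in tumours, was higher by 0.79 ± 0.202 (limma adjusted p = 0.0108). Within arrays, the dimmest changed by -1.06 ± 0.15 relative to the brightest (limma adjusted p = 0.000624), and on this measure the groups did not overlap. The same held for 1 pair of Srsf10, so for 2 of the 83 pairs, beside 0.441% of all pairs.

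Srsf10 contributed 3 of the 7 pairs. Relative to its brightest probe set (0.94), the other 3 changed by -1.10 ± 0.167, -0.83 ± 0.189 and -0.68 ± 0.158, with limma adjusted p-values of 0.000807, 0.014 and 0.0154. Those 3 probe sets by themselves had differences of -0.16, 0.11 and 0.26 and did not pass, so the rise of Srsf10 was measured by 1 of its 4 probe sets. With the mean of all kept probe sets in its place, Srsf10 had a difference of 0.29 and a limma adjusted p of 0.328. Sf3b1 showed the reverse order: a dimmer probe set, with levels of 8.62, 8.86 and 9.11 in normal prostates and 8.80, 9.31 and 10.41 in tumours, was higher by 0.61 ± 0.193 (limma adjusted p = 0.0333). Relative to the brightest, at -0.36, it changed by 0.97 ± 0.243 (limma adjusted p = 0.0245), and by 0.89 with an adjusted p of 0.0507 without normal prostate 4. In Sf3b6, a subunit that contacts the branch point, a further probe set changed by 0.62 ± 0.148 relative to the brightest (limma adjusted p = 0.0191). The pair of Hnrnph1 was the weakest: its other tested probe set changed by -0.49 ± 0.142 relative to the brightest (limma adjusted p = 0.0486), while both had positive differences.

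**Figure D3:**
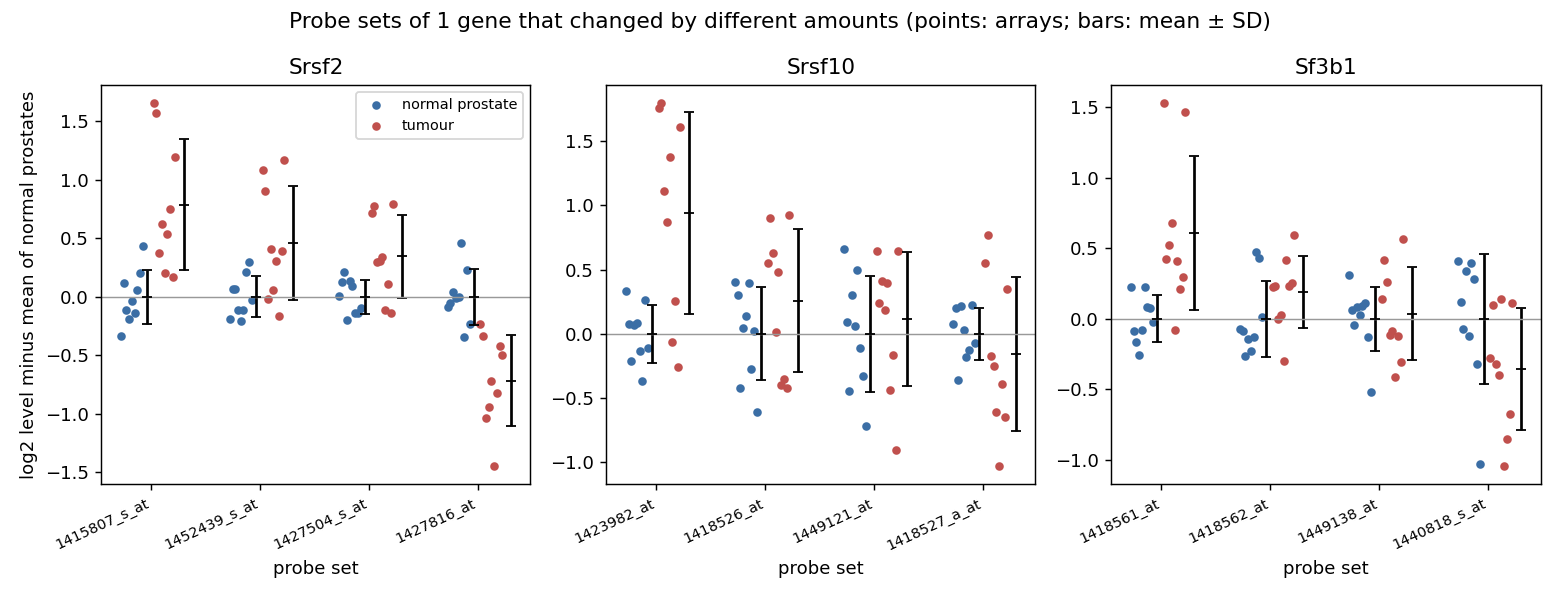
Levels of each tested probe set of Srsf2, Srsf10 and Sf3b1 on each array, as the log2 difference from the mean of the 9 normal prostates, with points for arrays and bars for the mean ± SD of each group. Within each gene the tumours move by different amounts, from 0.79 to -0.72 in Srsf2, from 0.94 to -0.16 in Srsf10 and from 0.61 to -0.36 in Sf3b1.

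The tumours differed among themselves far more than the normal prostates did. The mean level over the 45 genes was 11.64 ± 0.0854 (SD, n = 9) in normal prostates and 12.003 ± 0.353 (SD, n = 9) in tumours. It ran from 11.47 to 11.74 over the normal prostates and from 11.57 to 12.59 over the tumours, so the groups overlapped. Tumours 9, 2 and 1, at 12.59, 12.39 and 12.34, stood above the other 6, which reached 11.93 at most, and tumours 6 and 7, at 11.67 and 11.57, lay within the normal range. The 40th percentile of signal was lowest of the 18 arrays on tumours 9 and 2 (104.33 and 111.26). It was highest on tumours 6 and 7 (153.89 and 138.43), with tumour 1 at 132.48. The part of these array differences in the ranking was not tested. The SD was larger in tumours for 41 of the 45 genes (91.1%), beside 74.4% of all genes. Tumour 9 had the highest level of all 18 arrays for 30 of the 45 genes (66.7%), beside 15.1% of all genes and 46.1% of all genes called higher. The 3 highest tumours were tumours 1, 2 and 9 for 28 of the 45 genes, or 62.2%, beside 9.40% of all genes and 34.9% of those called higher.

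**Figure D4:**
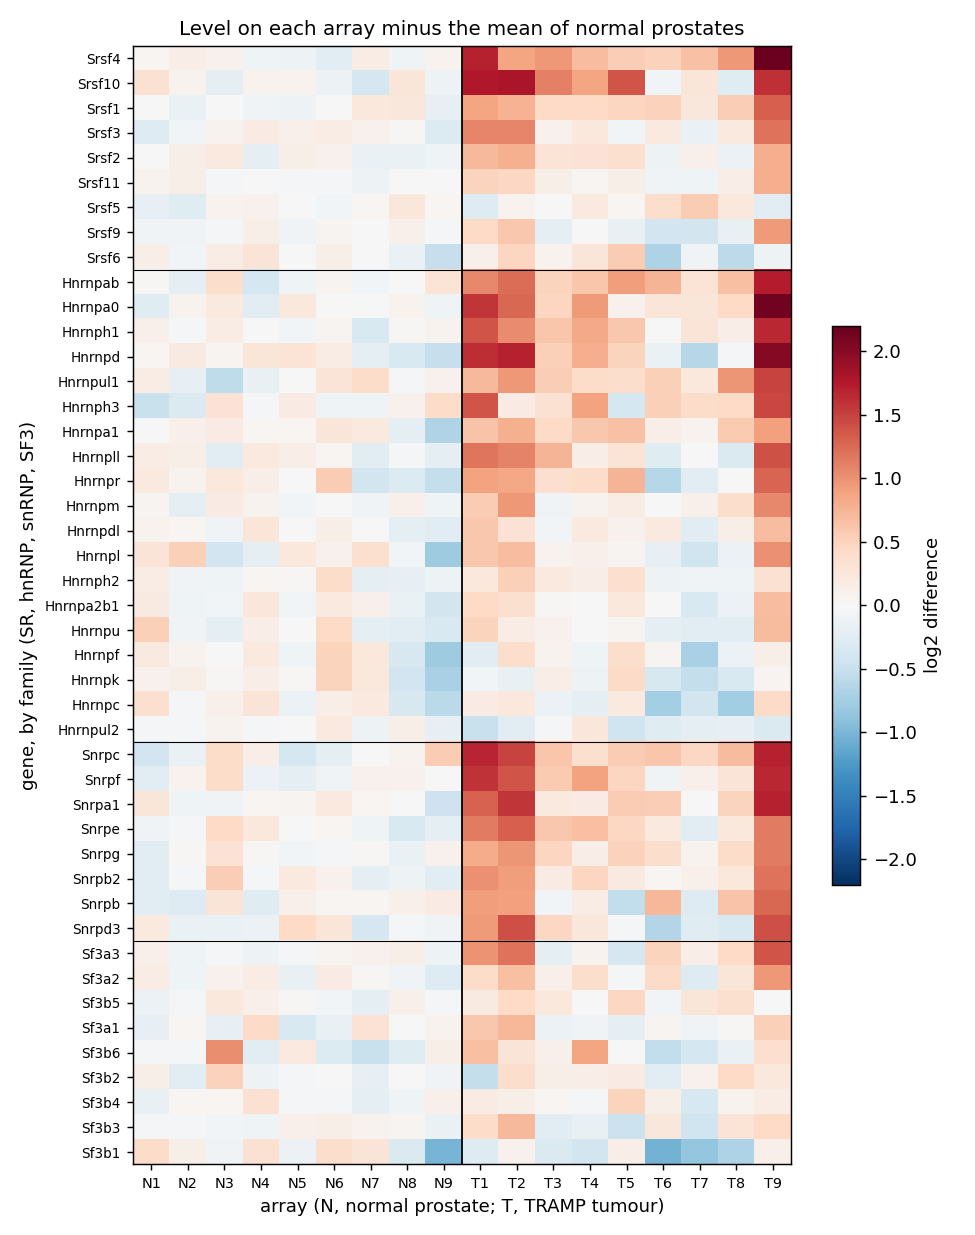
Level of each of the 45 genes (rows, by family) on each of the 18 arrays (columns; N, normal prostate; T, TRAMP tumour), as the log2 difference from that gene's mean over normal prostates, shown by colour. The columns of tumours 1, 2 and 9 are the darkest red, and tumours 6 and 7 are close to the normal prostates.

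The same 3 tumours had the highest levels of proliferation genes. All 9 measured genes of a list of 10 (Mki67, Top2a, Pcna and others) were higher in tumours, with a median log2 difference of 3.34. Their mean level ran from 7.61 to 9.26 over normal prostates and from 9.95 to 13.22 over tumours, and it was highest in tumour 9, then tumour 1, then tumour 2. Bub1 was the only one of the 9 under the 40th percentile of its array on all 9 normal prostates. How far the splicing factor genes differ because of the share of dividing cells was not tested.

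**Figure D5:**
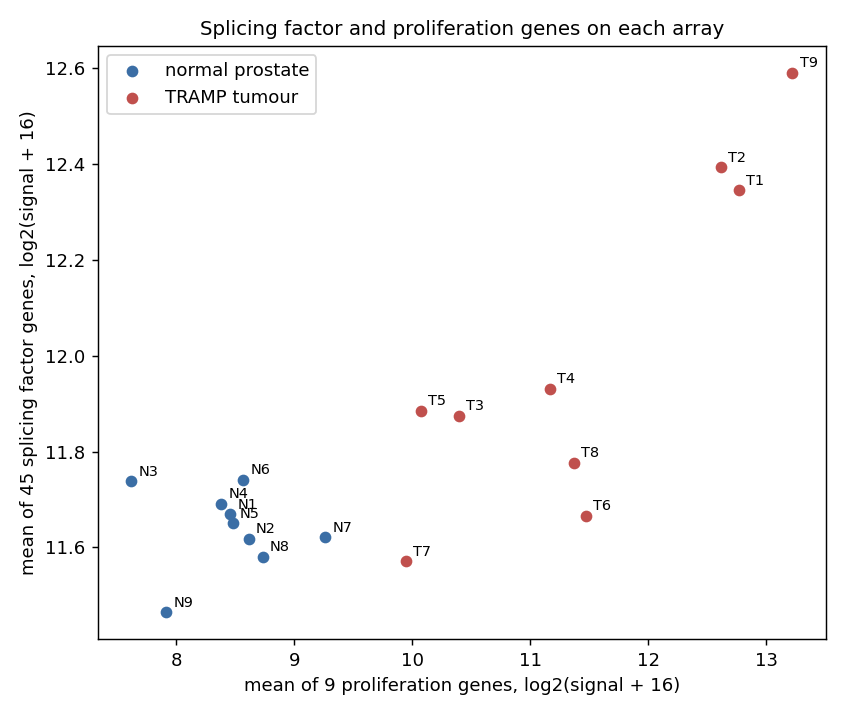
Mean level of the 45 splicing factor genes (vertical axis) against the mean level of 9 proliferation genes (horizontal axis), both as log2(signal + 16), with 1 labelled point per array. Tumours 1, 2 and 9 lie at the upper right, and tumours 6 and 7 lie within the vertical range of the normal prostates but to their right.

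Several arrays carried markers of other tissue. The mean of 6 of 7 seminal vesicle genes was 12.09 on normal prostate 9, at least 14.98 on tumours 3, 5 and 7 and from 10.83 to 10.85 on tumours 6 and 8. No other array exceeded 8.34. Without normal prostate 9 and tumours 3, 5 and 7, 21 of the 45 genes were higher and 0 lower, beside 14.1% of all genes higher. Without tumours 6 and 8 as well, 28 were higher and 0 lower, beside 17.2% of all genes higher. The median differences were 0.48 and 0.65. The second omission leaves tumours 1, 2, 4 and 9, and tumours 1, 2 and 9 had the highest splicing factor and proliferation levels. Dropping seminal vesicle tissue and keeping these tumours therefore cannot be told apart. The mean of 5 urothelium genes was 13.56 and 11.67 on normal prostates 3 and 5 and 13.42 on tumour 4. No other array exceeded 9.40. The mean of 6 skeletal muscle genes was 13.41 on normal prostate 1 and at most 9.20 elsewhere. Both omissions kept these arrays. The mean of 7 smooth muscle genes was 8.44 on tumour 9 and 8.58 on tumour 2, the 2 lowest of the 18 arrays, and the mean of 6 luminal epithelium genes was lowest on tumour 9 (7.90) and next lowest on tumour 1 (9.84). The mean of 7 of 8 neuroendocrine genes reached 11.33 in tumour 9, 10.98 in tumour 1 and 9.58 in tumour 4, and no other array exceeded 6.95. The mean of 8 neuronal genes was 9.57, 10.72 and 9.43 in these tumours, and elsewhere it did not exceed 7.17. Chgb and Scg3 were under the 40th percentile on all 9 normal prostates. Tumours 9 and 1 are among the 3 with the highest splicing factor levels, and tumour 2, the other of these, had a neuroendocrine mean of 6.20. Of the adipocyte genes, 3 of 3 tested were lower in tumours (median -4.50), and of the leukocyte genes, 3 of 5 tested were higher (median 1.03). Leaving out the arrays with seminal vesicle genes also changed which tumours were compared, and the part of these tissues in the result was not tested.

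Array quality also differed. Poly-A spike controls, added to the RNA before labelling, were bright on normal prostates 1 to 6 and tumours 1 to 5 and dim on normal prostates 7 to 9 and tumours 6 to 9. Within the arrays with bright spikes, 13 of the 45 genes were higher and 0 lower (median 0.33), beside 7.61% of all genes higher. That set of 13 lacked Snrpa1 and held Hnrnpd. Within the 3 normal prostates and 4 tumours with dim spikes, limma called 0 of 12793 genes, with 1645 at an unadjusted p of 0.05, of which Srsf4 was the only member. There all 13 genes had a positive difference and the median over the 45 was 0.36. The 13 were chosen with these same arrays included, so their signs there are not independent of that choice. With the spike group as a block, 15 genes were higher and 0 lower, beside 11.8% of all genes higher. The actin 3′ to 5′ log2 ratio, a measure of RNA degradation, was 1.71 ± 0.692 (SD, n = 9) in normal prostates and 1.12 ± 0.506 (SD, n = 9) in tumours. With this ratio as a covariate, 11 genes were higher, without Hnrnpa0 and Snrpf, beside 5.98% of all genes higher.

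Over the 131 tested genes of 4 further lists of the splicing pathway (147 listed), 22 were higher and 2 lower, with a median difference of 0.20, beside 11.3% of all genes higher and 12.7% lower. By list, 8 of 60 other spliceosome components, 11 of 44 splicing regulators and RNA-binding proteins, 1 of 14 kinase, methylation and import genes and 2 of 13 snRNP assembly genes were higher, and both lower genes were regulators. Cdc5l, a core spliceosome protein named after its values were seen, Ilf2, Raly, an hnRNP C relative, and Nono, a paraspeckle protein, had groups that did not overlap, with tumours higher, as in 1.45% of all genes. The difference of Cdc5l was 0.55 ± 0.13 (limma adjusted p = 0.00542). Levels of Raly were 8.65, 9.32 and 9.75 in normal prostates and 10.002, 10.47 and 10.83 in tumours, a difference of 1.13 ± 0.159 (limma adjusted p = 0.000128). Levels of Ilf2 were 8.83, 9.18 and 9.62 in normal prostates and 9.73, 10.02 and 12.04 in tumours, a difference of 1.39 ± 0.281 (limma adjusted p = 0.00198).

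Nono had a difference of 1.20 ± 0.164 (limma adjusted p = 0.000104) on its brightest probe set. Without tumour 6 or tumour 9 a different probe set was the brightest, with a difference of 0.40 or 0.33 and a limma adjusted p of 0.0717 or 0.127. Lsm2, a protein of the ring on U6 RNA, Khdrbs3, a STAR family regulator also named SLM2, and Qk, which encodes quaking, rose by 1.29 ± 0.295, 1.41 ± 0.296 and 1.29 ± 0.291, with limma adjusted p-values of 0.00447, 0.00258 and 0.0041. Esrp2, one of the pair of epithelial splicing regulators, had levels of 9.97, 10.28 and 11.20 in normal prostates and 6.17, 8.55 and 10.77 in tumours, with 8 of 9 tumours below every normal prostate. It fell by 1.86 ± 0.495 on the log2 scale (limma adjusted p = 0.011). Its relative Esrp1, named after its values were seen, had a difference of -1.81 ± 0.867 and did not pass (limma adjusted p = 0.136). Srrm1, a coactivator of SR proteins, fell by 0.33 ± 0.105 (limma adjusted p = 0.0276), and the adjusted p was between 0.0512 and 0.0548 without normal prostate 2, 4, 5 or 6 or without tumour 1.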

How the data were processed

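RNA was isolated with Trizol and biotin-labelled for Affymetrix arrays, as the labels' protocols state. The authors deposited linear intensities, 1 for each probe set, from MAS5 (named in the submitters' processing notes without a version). Each array's 2% trimmed mean was 500. Probe sets were named from the platform annotation: 34945 had a single gene, 932 had more than 1, 9160 had no gene and 64 were control probe sets; 34741 matched RefSeq's GRCm38.p6 table by Entrez identifier and 0 symbols changed. Another 16 probe sets name a member with other genes and were not used. The scale was log2(signal + 16) with no further normalization. Probe sets above the 40th percentile of their array on at least 9 of 18 arrays (27292) were kept, and limma 3.58.1 in R 4.3.3 (group only, two-sided, Benjamini-Hochberg over all features) was applied to the brightest kept probe set of each of 12793 genes, to all kept probe sets, and to within-array differences of probe sets. The code was tested on simulated data. The number of arrays limits the precision. Named members were the 8 called genes with the largest absolute t and a preset list, named other splicing genes up to 6 per direction, and named pairs 6, to which the seventh was added after its values were seen. Members and lists were chosen with earlier results of these data known. The alternatives were other constants, filters, scalings, blocks, covariates, array weights, probe set choices and omitted arrays; the dim-spike arrays alone were added after seeing the data.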

Additional observations from a re-analysis of the deposited data

Results flagged for a closer look

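Over the 68 groups of 9 arrays tested for a sample far from the others, 2 exceeded Dixon's critical value for 9 arrays, and chance alone flags about 5% of groups. Hnrnph1 was lowest on normal prostate 7, at 11.87 with the next array at 12.14, a gap of 0.537 of the range of its group. Snrpa1 was lowest on normal prostate 9, at 10.09 with the next array at 10.46, a gap of 0.5 of the range. Both genes stayed called higher in tumours when the array concerned was left out.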

How the results depend on the processing

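The count of 13 genes higher stayed between 9 and 18, with 0 lower, under other constants, filters, quantile normalization, both centrings, the trend, the block on spikes, the actin covariate and the mean of probe sets. The share of all genes higher ran from 5.98% to 12.1% under these settings, and from 8.97% to 12.4% with 1 array left out. Leaving out 1 array gave 12 to 16 higher and 0 to 0 lower, a median of 0.28 to 0.40, 26 to 43 probe sets higher, 1 to 1 lower, 5 to 11 unequal pairs, 15 to 24 other splicing genes higher and 1 to 5 lower, and 2452 to 3402 genes called in all. Apart from the runs without 1 array, there were 743 values of named genes and named probe set pairs. Of these, 653 kept direction and call, 51 lost the call, 20 gained it and 19 changed sign. Replicate numbers are shared by the groups but did not pair the arrays: same-numbered pairs correlated at -0.11 to 0.31, and 1 of 9 exceeded 0.1. With the replicate block, 11 members were higher (without Hnrnpa1 and Snrpa1), 14 other splicing genes were higher and 2645 genes were called.

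Centring on the 75th percentile and on housekeeping genes moved higher calls from 47.1% of all calls to 35.3% and 35.5%; probe sets of the set higher were 24 and 13, other splicing genes lower were 4 and 4, and other splicing genes higher 14 under the latter. With array weights, 1 member (Sf3b1) and 3 probe sets were lower, 15 pairs were unequal, 6 other splicing genes were lower and the median was 0.21. With the actin covariate, 1634 genes were called, with 12 probe sets of the set higher, 3 pairs unequal and 14 other splicing genes higher. On bright-spike arrays, 12 other splicing genes were higher and 1 lower. On dim-spike arrays limma called 0 genes in all (1645 at an unadjusted p of 0.05), so 0 members, probe sets, pairs and other splicing genes. Without normal prostate 9 and tumours 3, 5 and 7, 21 members were higher, the count of member probe sets higher was 57, 19 pairs were unequal, 6 other splicing genes were lower and the median was 0.48. Without tumours 6 and 8 as well, these were 28, 78, 15, 6 and 0.65, with 51 other splicing genes higher and 4867 genes called. With the mean of probe sets, 36 other splicing genes were higher. Without _x_at, _s_at and _a_at probe sets, 38 members were left to test, and Snrpa1 and Snrpe were not among them. Of the 38, 14 were higher and 1 (Srsf2) lower, beside 11.1% and 11.6% of all genes tested there. In that setting 18 member probe sets were higher and 2 pairs unequal.

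Changes of sign were those of Hnrnpk, at 0.14 (quantile normalization), 0.17 (actin covariate), 0.00925 (dim-spike arrays), 0.0294 (mean of probe sets) and 0.0182 (without shared probe sets), and of Srsf6, at -0.0719 and -0.0345 (the centrings), -0.0930 (array weights), -0.14 (dim-spike arrays), -0.15 (without normal prostate 9 and tumours 3, 5 and 7) and from -0.0607 to 0.0935 with 1 array left out. Hnrnpa2b1 was -0.00549 with array weights and -0.12 on bright-spike arrays. Hnrnpl, Hnrnpu and Sf3b3 were -0.0833, -0.0943 and -0.0173 with array weights. Srsf5 was -0.0510 without the 6 arrays. Sf3b1 was 0.12 with the mean of probe sets and 0.0376 without shared ones, where Srsf2 was -0.72. The cause was not tested. Dim probe sets have little signal over background, which limits what they can show.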

Other observations

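Srsf12 and Snrpn, the members that did not pass the filter on low signals, had no test. The probe set of Srsf12, a little-studied SR protein, exceeded the 40th percentile of its array on 3 arrays: its level, as log2(signal + 16), was 8.997 on tumour 1, 8.59 on tumour 9 and 7.23 on tumour 4. The other tumours were at 6.16 or below and the normal prostates between 4.17 and 6.87. A dim Hnrnpd probe set, also untested, was highest on the same 3 arrays, at 9.54, 10.42 and 8.47, with normal prostates between 4.22 and 6.59. Tumours 1, 9 and 4 also had the highest mean of the neuroendocrine genes, at 10.98, 11.33 and 9.58, with at most 6.95 on the other arrays. Of that list, Chga was at 11.50, 12.24 and 9.996 on these tumours and at most 7.48 on the other arrays. Not all genes of the list did the same: Ncam1 was at 10.38 on tumour 4 and 11.32 on normal prostate 9, and Scg2 at 6.82 and 7.29. The part of these neuroendocrine levels in the Srsf12 and Hnrnpd values was not tested. Snrpn exceeded the percentile on 0 arrays, with levels of 4.85 to 6.58 in normal prostates and 4.51 to 5.24 in tumours.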
